A study of Mus musculus with 109 samples.

Results

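Retinal ganglion cells are the output neurons of the retina, and their axons form the optic nerve. The genes described here are 10 that are commonly used to recognise them: the RNA-binding protein gene Rbpms, the POU-domain transcription factor genes Pou4f1, Pou4f2 and Pou4f3, the surface glycoprotein gene Thy1, the synuclein gene Sncg, the neurofilament genes Nefl, Nefm and Nefh, and Slc17a6, which encodes the vesicular glutamate transporter VGLUT2. They were taken by symbol from a count table of 37315 genes, and all 10 passed the filter on low counts in every comparison. Counts came from whole retinas of 64 mice, sequenced one retina per library after an injection into the vitreous of PBS or of the cytokines IL1A, TNF or both.

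All wild-type (WT) mice were C57BL/6J, and per the series' design text the mice were 2 to 4 months old. The first batch held WT retinas taken on day 2 after PBS (n = 31), TNF (n = 8), IL1A (n = 9) or IL1A+TNF (n = 10), on day 14 after PBS (n = 7) or TNF (n = 6), and on day 35 after PBS (n = 6) or TNF (n = 9). The second batch held day 2 retinas of mice deficient in Sarm1 (Sarm1-/-) after PBS (n = 6) or IL1A+TNF (n = 6) and of WT mice after PBS (n = 5) or IL1A+TNF (n = 6). In 45 mice both eyes were sequenced, in most cases the treated eye and its PBS-injected fellow eye. IL1A and TNF are inflammatory cytokines that glia and leukocytes release after injury. SARM1 is an NAD-consuming enzyme known for driving axon degeneration, and the Sarm1-/- mice were a Sarm1-deficient line of the Jackson Laboratory.

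Ganglion cells are a small share of retinal neurons, and in a whole retina most RNA comes from photoreceptors and other inner neurons. Their marker genes differ in how strictly they mark the cell. Pou4f1, Pou4f2 and Pou4f3 (BRN3A, BRN3B and BRN3C) are needed for ganglion cells to form, differentiate and survive, and RBPMS protein is found in nearly all ganglion cells, whereas Thy1, the neurofilaments and Slc17a6 are also used by other neurons of the brain and, for some, of the retina. Thy1, Sncg and Pou4f1 are known to lose RNA early in injured ganglion cells, before the cells are lost. In RNA from a whole retina, fewer ganglion cells and less of a transcript per cell cannot be told apart.

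Read pairs assigned to genes numbered 30014757 to 79064488 per retina, with a median of 39374202, and batch 2 (42875980 to 79064488) was sequenced more deeply than batch 1 (30014757 to 45779899). The sex given in the labels matched the expression of Xist and of 4 Y-linked genes in every retina. Sarm1 itself lay at 25.98 to 52.9 CPM (read counts scaled to a common library total) in the 12 Sarm1-/- retinas and at 76.2 to 138 CPM in the 97 WT retinas, so the groups did not overlap, although reads over the gene remained. The part of the gene that the allele removes is not given in the sources used here. The 3 female Sarm1-/- retinas injected with IL1A+TNF had the lowest summed level of the 10 genes (137 to 338 CPM, against 406 to 994 CPM in all other retinas), and the comparisons of Sarm1-/- IL1A+TNF retinas over both sexes are also given without them.

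Levels are given as CPM after scaling by the trimmed mean of M-values (TMM), and levels of different genes are compared only after division by the summed exon length of the gene in GENCODE M21 (GRCm38/mm10). In the 31 WT PBS retinas of day 2, batch 1, Nefl was highest with a median of 85.0 CPM per kb. Sncg followed at 44.8 and Thy1 at 43.4 CPM per kb, and their ranges overlapped. Nefh (21.4 CPM per kb) and Nefm (19.1 CPM per kb) also overlapped. Slc17a6 lay at 12.9, Pou4f1 at 6.24 and Rbpms at 4.77 CPM per kb, and of these the last pair overlapped. The lowest were Pou4f2 at 3.15 and Pou4f3 at 1.78 CPM per kb. The spread between PBS retinas was smallest for Rbpms, with a coefficient of variation of 7.06%, and largest for Pou4f3 at 15.7% and Sncg at 15.4%.

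In GENCODE M21, Rbpms lies on chromosome 8 (33782643 to 33929863, minus strand), Pou4f1 on chromosome 14 (104461676 to 104467999, minus strand), Pou4f2 on chromosome 8 (78433010 to 78436645, minus strand), Thy1 on chromosome 9 (44043384 to 44048579, plus strand), Sncg on chromosome 14 (34370274 to 34374789, minus strand), Nefh on chromosome 11 (4938754 to 4948064, minus strand), Slc17a6 on chromosome 7 (51622006 to 51671119, plus strand) and Pou4f3 on chromosome 18. Nefl (68083863 to 68089095, plus strand) and Nefm (68082590 to 68124846, minus strand) overlap on chromosome 14 and share 1108 exon bases on opposite strands, which is 32.8% of the exon bases of Nefl and 19.2% of those of Nefm. Whether reads were counted by strand is not given in the sources used here, so the values of Nefl and Nefm may not be fully independent of each other. None of the other 8 genes shared exon bases with another annotated gene.

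The first question was what each cytokine did to these genes 2 days after injection. After IL1A+TNF, 9 of the 10 genes fell in WT retinas, by 0.13 (Nefh) to 0.56 (Pou4f3) on the log2 scale, and the transcription factors Pou4f2 and Pou4f3 fell most. In this comparison 25.5% of all 19548 genes tested were called lower at a false discovery rate (FDR) under 0.05. After IL1A alone, 8 of the 10 fell, by 0.14 to 0.45, against 9.44% of all genes called lower. With mouse as a fixed replicate block, which uses only the mice with both eyes, 9 genes were called after IL1A+TNF (37.1% of all genes were, in either direction) and 0 after IL1A (6.76%). After TNF alone none was called, and 0.547% of all genes were called in either direction. The 3 comparisons share the same 31 PBS retinas.

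Pou4f3, which acts with the other BRN3 factors in ganglion cell differentiation, ranged from 3.10 to 5.56 CPM in the PBS retinas with a median of 4.28. After IL1A+TNF it ranged from 2.08 to 4.04 CPM with a median of 2.53, and 7 of the 10 retinas lay below the lowest PBS retina. Its log2 fold change was -0.56 (SE 0.10, FDR 1.88e-06, limma-voom), and after IL1A alone it was -0.45 (SE 0.10, FDR 0.000563). Pou4f2 had a median of 10.1 CPM after PBS (range 7.46 to 12.2), 7.16 CPM after IL1A+TNF (5.69 to 9.25) and 7.96 CPM after IL1A (4.52 to 9.91). It fell by 0.44 (SE 0.07, FDR 7.79e-07) after IL1A+TNF and by 0.39 (SE 0.08) after IL1A. Groups overlapped for both genes. Pou4f1, the BRN3 factor that persists in a large part of adult ganglion cells, moved less, with log2 fold changes of -0.25 (SE 0.06) and -0.18 (SE 0.06).

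Rbpms had the smallest FDR of the 10 genes after IL1A+TNF. The PBS retinas held 27.8 to 35.5 CPM of Rbpms with a median of 31.3, and the IL1A+TNF retinas held 23.1 to 29.2 CPM with a median of 24.1. In 8 of 10 IL1A+TNF retinas the level was below that of the lowest PBS retina, and the log2 fold change was -0.30 (SE 0.04, FDR 5.51e-09), a percent change of -18.95. After IL1A alone Rbpms ranged from 22.95 to 35.01 CPM and the log2 fold change was -0.14 (SE 0.04).

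**Figure D1:**
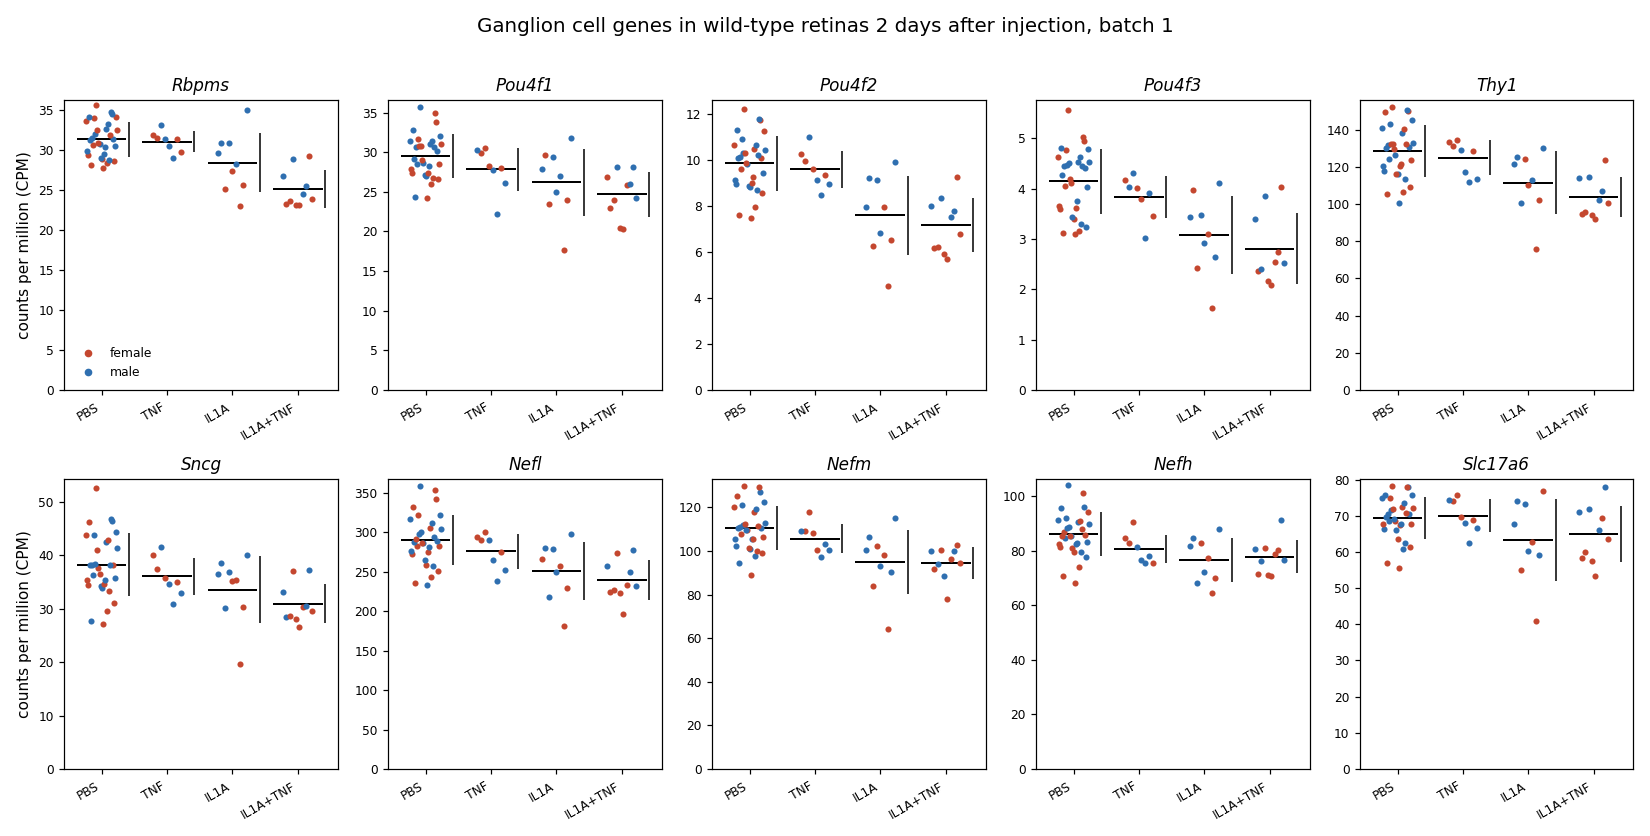
Level of each of the 10 ganglion cell genes in WT retinas 2 days after injection of PBS, TNF, IL1A or IL1A+TNF (x axis); the y axis is CPM from 0, each point is 1 retina coloured by sex, the horizontal line is the group mean and the vertical line 1 SD on either side. In 8 of the 10 IL1A+TNF retinas Rbpms was below the lowest of 31 PBS retinas, whereas for Nefh none was.

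Thy1, a surface protein of neurons that is used as the promoter source for many ganglion cell reporters, ranged from 101 to 152 CPM after PBS with a median of 130. After IL1A+TNF it ranged from 91.8 to 123 CPM with a median of 101, and 5 of 10 retinas were below every PBS retina. It fell by 0.30 (SE 0.06, FDR 1.53e-05) after IL1A+TNF and by 0.21 (SE 0.06, FDR 0.00658) after IL1A. Sncg, which encodes gamma-synuclein, fell by 0.28 (SE 0.08) after IL1A+TNF, while after IL1A its log2 fold change of -0.19 (SE 0.08) had an FDR of 0.0762. Its PBS range of 27.2 to 52.6 CPM held all but 1 retina of each of these groups.

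The neurofilament genes, which encode the light, medium and heavy subunits of the axonal cytoskeleton, fell less than Pou4f2 and Pou4f3. Nefl had a median of 287 CPM after PBS (233 to 358), 257 CPM after IL1A (181 to 297) and 233 CPM after IL1A+TNF (196 to 277), with a log2 fold change of -0.27 (SE 0.06) for the combination. Nefm fell by 0.22 (SE 0.05) after IL1A+TNF. Nefh had a median of 85.6 CPM after PBS and 77.8 CPM after IL1A+TNF, with a log2 fold change of -0.13 (SE 0.04, FDR 0.00885), and no IL1A+TNF retina fell below the lowest PBS retina at 68.2 CPM. For the glutamate transporter gene Slc17a6 the log2 fold change was -0.09 (95% interval -0.19 to 0.02, FDR 0.190) after IL1A+TNF and -0.14 (-0.26 to -0.03, FDR 0.0630) after IL1A.

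After TNF alone on day 2 the 10 log2 fold changes ran from -0.11 (Pou4f3) to 0.02 (Slc17a6), and FDR values were 0.667 or more. For Rbpms, the 95% interval was -0.10 to 0.08, and for Pou4f3, the gene with the widest interval, it was -0.31 to 0.10. In 59 of 80 gene and mouse pairs the TNF eye was below its PBS fellow eye. Over the same genes this was 58 of 70 after IL1A (7 mice) and 76 of 80 after IL1A+TNF (8 mice), where the treated eye was lower in all 8 mice for Rbpms, Pou4f2, Pou4f3, Thy1, Sncg, Nefl and Nefh. The genes of 1 mouse share its libraries, so these pairs are counts and not independent replicates.

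**Figure D2:**
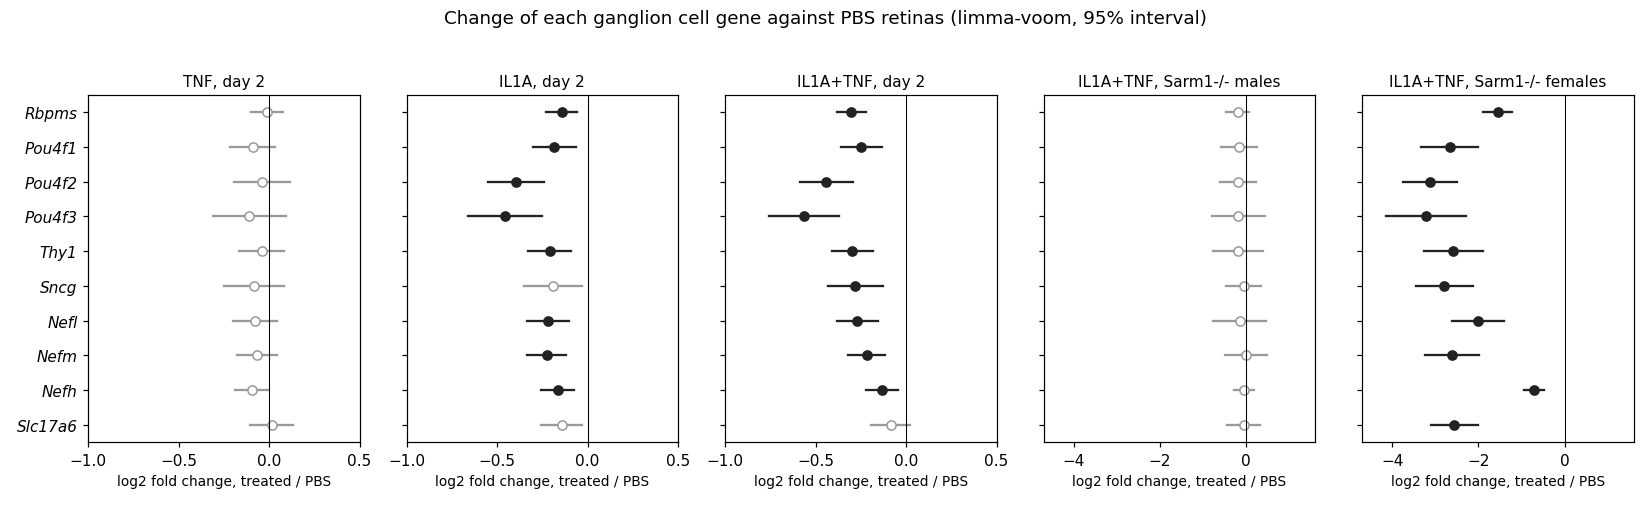
Log2 fold change of each gene against PBS (x axis) with its 95% interval from limma-voom; filled dark points were called at FDR under 0.05 and open grey points were not. The first 3 panels are WT retinas of batch 1 and the last 2 are Sarm1-/- males and females of batch 2, drawn on a wider axis, where females ran from -3.21 to -0.71 and males from -0.20 to 0.0026.

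Whether TNF added to IL1A was tested directly. Of the 10 genes only Rbpms was called between IL1A+TNF and IL1A retinas, with a log2 fold change of -0.16 (SE 0.05, FDR 0.0377), beside 4.74% of all genes called lower, and the call was lost when any of 20 among 27 mice was left out, with total counts and with no filter. The interaction of IL1A and TNF was called for none of the 10, with 3.49% of all genes called in either direction, estimates from -0.15 (Rbpms) to 0.13 (Nefh) and FDR values of 0.231 or more. Scaled by other retinal neuron genes, Rbpms turned to 0.039 between IL1A+TNF and IL1A, and Nefl, Nefm, Nefh and Slc17a6 were called higher there (41.7% of all genes were called in either direction) and in the interaction (19.9%).

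Other neurons moved in the same direction at the same time. After IL1A+TNF the median log2 fold change was -0.28 over the 10 ganglion cell genes, -0.50 over 8 rod genes, -0.90 over 8 cone genes, -0.40 over 10 bipolar cell genes, -0.23 over 10 amacrine cell genes and -0.23 over 5 horizontal cell genes, beside -0.02 over all genes tested. Genes called lower were 8 of 8 for cones, 7 of 8 for rods, 8 of 10 for bipolar cells, 9 of 10 for amacrine cells and 3 of 5 for horizontal cells. In the same retinas genes of some other cells rose: 8 of 10 microglial and myeloid genes and 4 of 5 neutrophil genes were called higher, with medians of 1.13 and 3.59. Müller glia genes did not: their summed level had a median of 3430 CPM after IL1A+TNF (1800 to 4350) and 4210 CPM after PBS (2760 to 5110). When each retina was instead scaled by its rod, cone, bipolar, amacrine and horizontal cell genes, the median of all genes shifted to 0.36, the median of the 10 ganglion cell genes became 0.11, and 8 of them had a positive log2 fold change after IL1A+TNF, from 0.08 (Rbpms) to 0.30 (Slc17a6). Only Pou4f2 and Pou4f3 stayed negative. After IL1A, the same scaling left a median of -0.01 and 2 genes called lower. On that scale 5 genes were called higher after IL1A+TNF and 1, Pou4f3, lower. The shares of all genes called on that scale are not given here, and the median of all genes had moved up after IL1A+TNF. These counts therefore do not set the 10 genes apart from all others.

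A longer list of 26 further ganglion cell genes, which holds subtype and injury genes as well as general ones, was mixed. After IL1A+TNF, 19 were called lower and 2 higher, with a median of -0.22. The nicotinic receptor subunit genes Chrna6 (-0.76, SE 0.08) and Chrnb3 (-0.60, SE 0.06) fell together with Rbpms2 (-0.49, SE 0.06), the paralog of Rbpms, and the adhesion gene Jam2 (-0.35, SE 0.04), a marker of a direction-selective type. Both genes called higher were Spp1 (2.04, SE 0.25) and Kcng4 (0.69, SE 0.07), which mark alpha ganglion cells. Spp1 encodes osteopontin and is also known in activated microglia and macrophages. Of this list 13 genes were lower and 2 higher after IL1A alone.

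Sex was compared because both sexes were used in every group, and the treatment effects by sex were fitted after the values had been seen. In WT retinas of day 2, batch 1, no ganglion cell gene was called between females and males (0.363% of all genes were), although all 10 estimates were negative, from -0.12 (Pou4f2) to -0.02 (Nefm). The IL1A+TNF effect had a median of -0.32 in females and -0.21 in males, and the IL1A effect -0.32 in females and -0.12 in males. In females alone all 10 were called lower after IL1A+TNF, beside 20.6% of all genes, and in males 5 were, beside 14.8%. After IL1A, 10 were called lower in females (9.3% of all genes were) and 0 in males (0.573%). The IL1A+TNF group held 6 females and 4 males, and the IL1A group 4 females and 5 males. The difference between the sexes was called for no gene at all in either case (0% of 19548 genes for IL1A+TNF and likewise 0% for IL1A). At an unadjusted p under 0.05 there were 1265 and 1523 genes, edgeR called 1 and 0 genes, and DESeq2 called 1 gene in each. The retina of a female, mouse 60637, was the lowest of the IL1A group for 9 of the 10 genes, all but Rbpms, with 76.0 CPM of Thy1 and 19.6 CPM of Sncg. Without it 5 of the 10 genes were called lower after IL1A, against 8 with it, where 9.44% of all genes were called lower. The share of all genes called without it is not given here, so whether the change is particular to these genes was not tested.

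Batch 2 repeated the IL1A+TNF injection in WT mice. All 10 genes had a negative log2 fold change, from -0.60 (Pou4f2, SE 0.38) to -0.23 (Nefh, SE 0.13), with a median of -0.38, but none was called in the fit of all 23 retinas of the batch, where 20.3% of all genes were called in either direction. That fit shares its estimate of the spread with the Sarm1-/- retinas. In the 11 WT retinas alone 6 of the 10 genes were lower, beside 32.8% of all genes called in either direction, without the 3 female Sarm1-/- IL1A+TNF retinas 9 were lower (39.5% of all genes called), and with mouse as a fixed replicate block 6 were (29.6%). Scaled by the other retinal neurons, the median of the 10 was 0.16. For 5 genes every IL1A+TNF retina lay below every PBS retina, as it did for 10.2% of all genes tested. Pou4f2 was 8.78, 8.35, 9.46, 9.87 and 9.18 CPM in the 5 PBS retinas and 3.70 to 7.33 CPM in the 6 IL1A+TNF retinas (median 6.11). Thy1 was 139, 127, 131, 132 and 124 CPM after PBS and 59.5 to 120 CPM after IL1A+TNF (median 102). For Pou4f1, Nefl and Slc17a6 the ranges did not overlap either. In all 10 genes the lowest retina of the IL1A+TNF group was that of the male mouse 61721.

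**Figure D3:**
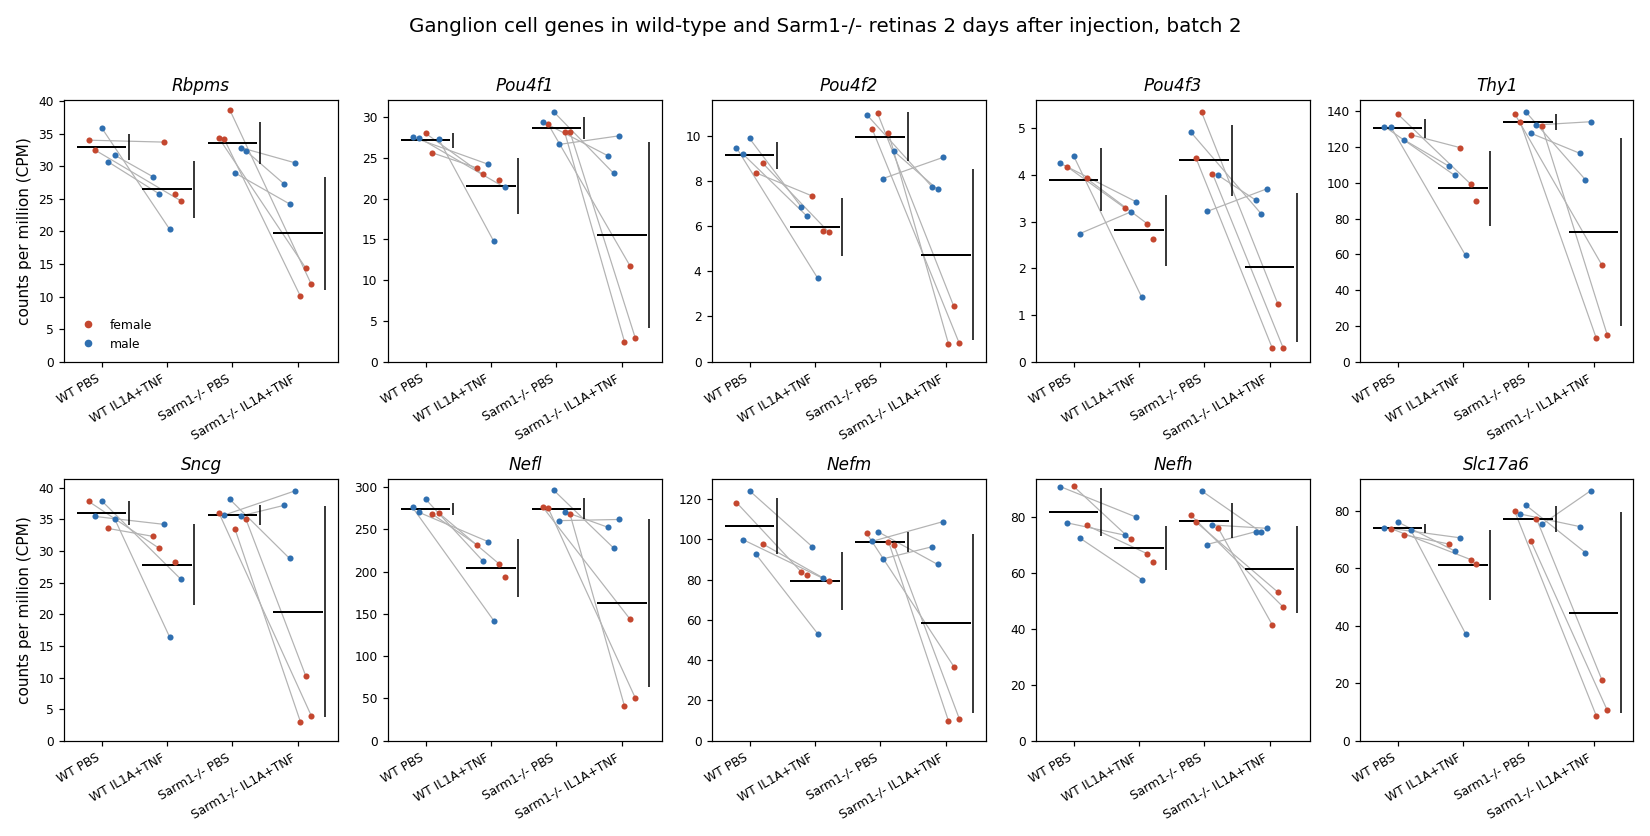
Level of each gene in batch 2, in WT and Sarm1-/- retinas after PBS or IL1A+TNF (x axis); the y axis is CPM from 0, each point is 1 retina coloured by sex, grey lines join both eyes of a mouse, the horizontal line is the group mean and the vertical line 1 SD on either side. The 3 female Sarm1-/- IL1A+TNF retinas lie below every other retina of the batch for Rbpms, Pou4f1, Pou4f2, Pou4f3, Thy1, Sncg, Nefm, Nefh and Slc17a6, as they do for 5.55% of all genes tested.

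The Sarm1-/- retinas addressed whether the response depends on SARM1. After PBS, no ganglion cell gene differed between Sarm1-/- and WT retinas, with 0.0397% of all genes called, estimates from -0.0025 (Nefh) to 0.17 (Pou4f2) and wide intervals, such as -0.30 to 0.55 for Thy1. After IL1A+TNF all 10 genes were called lower than in the Sarm1-/- PBS retinas, by 0.38 (Nefh) to 1.58 (Pou4f3), in a comparison with 22.3% of all genes called lower. The median over the 10 was -1.29 by limma-voom and -0.86 by both edgeR and DESeq2. All 10 were also called below WT IL1A+TNF retinas (10.9% of all genes were lower), by 0.23 to 1.02, while edgeR called 1 of them, DESeq2 4 and the fit of batch 2 alone 0. The genotype by treatment interaction was negative for all 10 and called for 9, all but Nefh (-0.22, FDR 0.144), with 7.39% of all genes called lower. Both the edgeR test and batch 2 alone called the interaction for none of the 10. The shares of all genes called in these other fits are not given here.

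These calls rested on 3 of the 6 treated retinas, which were set apart after their low levels of the same 10 genes had been seen. Leaving them out therefore shows how far the calls depend on them and is no separate test of the genotype. Without the 3 females no gene was called after IL1A+TNF in Sarm1-/- retinas (2.88% of all genes were, in either direction), the median log2 fold change was -0.18, and the interaction was called for none (0.594% of all genes) with positive estimates for all 10. Against WT IL1A+TNF retinas all 10 estimates also turned positive, from 0.046 (Rbpms) to 0.38 (Pou4f2), and none was called (4.54% of all genes were, in either direction). With mouse as a fixed replicate block, which compares both eyes of each of the 6 mice, again none was called and no gene of any kind was, while 5374 had a p under 0.05 before adjustment.

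Split by sex, a choice made after the values had been seen, the effect differed between female and male Sarm1-/- retinas for all 10 genes, beside 17.7% of all genes called lower in females relative to males. In females all 10 fell (27% of all genes were called lower) and in males none was called (0.0102% of all genes, 2 genes, were). In WT retinas of the same batch the difference between the sexes was called for no gene (0% of 19668, with 0 by edgeR and 1 by DESeq2, while for 598 p was under 0.05 before adjustment), and the 10 estimates ran from -0.13 to 0.33. The sexes of the Sarm1-/- group are 3 mice each, and sex cannot be told apart from any other difference between these 6 mice.

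In the treated females 61765, 61924 and 61926, Pou4f2 was 2.44, 0.802 and 0.811 CPM, against 10.983, 10.1 and 10.3 CPM in their PBS eyes. The males 61561, 61564 and 62221 held 9.04, 7.62 and 7.73 CPM in the treated eye and 8.10, 9.31 and 10.9 CPM in the PBS eye. Pou4f2 therefore fell to between 7.88% and 22.2% of the fellow eye in females and stayed between 70.8% and 112% in males. Its log2 fold change was -3.12 (SE 0.30) in females and -0.18 (SE 0.20) in males. Pou4f3, with -3.21 (SE 0.44), was the only gene to fall further in females, to 1.24, 0.285 and 0.290 CPM, which rest on 70, 16 and 15 reads.

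Thy1 was 54.2, 15.1 and 13.1 CPM in the treated female eyes and 139, 132 and 134 CPM in their PBS eyes. In males it was 134, 117 and 102 CPM after IL1A+TNF and 132, 128 and 140 CPM after PBS. Mouse 61765 kept more of every gene except Nefh than the other treated females did. Slc17a6 fell from 77.2, 69.3 and 79.8 CPM to 21.3, 10.6 and 8.65 CPM, with a log2 fold change of -2.56 (SE 0.26). In WT females of batch 1 its log2 fold change was -0.18 (SE 0.07, FDR 0.0292). Sncg fell to between 8.90% and 29.1% of the fellow eye and Pou4f1 to between 8.76% and 40.4%.

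Rbpms, Nefl and Nefh kept more of their RNA in these 3 retinas than the other 7 genes did, by the median share of the fellow eye. Rbpms fell to 14.3, 11.9 and 10.023 CPM, which is 29.3% to 41.7% of the fellow eye, with a log2 fold change of -1.56 (SE 0.16). Nefl fell to 144, 50.5 and 41.1 CPM with a log2 fold change of -2.01 (SE 0.29). Nefm fell further, to 36.8, 10.9 and 9.99 CPM (-2.62, SE 0.30). Nefh fell least, to 41.4, 53.2 and 47.8 CPM, or 54.3% to 68.0% of the fellow eye (-0.71, SE 0.11), and it was lowest in the mouse in which the other 9 genes were highest. Nefl, Nefm and Nefh encode subunits of 1 filament, and their RNA was reduced to different degrees.

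Genes of other retinal neurons and of Müller glia fell in the same 3 retinas. The median log2 fold change in the females was -2.60 over the 10 genes and -2.05 over the 26 further ganglion cell genes, of which 23 were called lower. It was -2.24 over bipolar, -2.12 over amacrine, -1.92 over horizontal, -1.77 over cone, -1.12 over Müller glia and -0.63 over rod genes. Summed amacrine cell genes were 203 to 825 CPM there and 640 to 1280 CPM in all other retinas, and summed horizontal cell genes 47.8 to 251 against 180 to 402 CPM, so that in both lists 1 female lay within the range of the others. Neutrophil genes summed to 132 to 314 CPM in these females, with a median of 293. All other retinas ran from 0.173 to 452 CPM with a median of 8.19. The treated Sarm1-/- males held 46.5 to 105 CPM, and WT IL1A+TNF retinas reached 452 CPM in batch 1 and 285 CPM in batch 2. Erythrocyte genes summed to 47.5 to 93.4 CPM in the females, above all others at 10.1 to 37.8 CPM. The part of neutrophils and erythrocytes in the lower ganglion cell genes was not tested. Scaled by the other retinal neurons, the median of all genes in females shifted to 1.65. The median of the 10 genes was then -0.93, 7 of them were called lower, and Nefh (0.96) and Rbpms (0.10) were positive. The share of all genes called lower on that scale is not given here.

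Of the further genes, Chrna6 (-3.59, SE 0.44), Chrnb3 (-3.21, SE 0.43) and the sodium channel gene Scn1a (-3.15, SE 0.41) fell about as far as Pou4f2 in the females. Tubb3, the neuronal tubulin recognised by TUJ1 antibodies, fell by 1.55 (SE 0.20), and Rbpms2 by 1.40 (SE 0.15). Spp1 rose by 3.34 (SE 0.40).

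The third question was how the genes behave over time and whether TNF alone acts later. On day 14, all 10 log2 fold changes after TNF were negative, from -0.20 (Pou4f3) to -0.05 (Slc17a6), but none was called and every FDR was 0.934. No gene at all was called (0% of 18023), although 718 had a p under 0.05 before adjustment, and 0 were called by edgeR or DESeq2. Rbpms held 30.1 to 36.8 CPM in 7 PBS retinas (median 33.0) and 28.2 to 33.6 CPM in 6 TNF retinas (median 30.2) with a log2 fold change of -0.14 (SE 0.05). In 35 of 40 gene and mouse pairs (4 mice) the TNF eye was below its fellow eye on day 14, and in 36 of 60 (6 mice) on day 35. On day 35 the estimates ran from -0.10 (Nefm) to 0.02 (Rbpms), none was called, and again 0% of all 17821 genes were, while 914 had a p under 0.05 before adjustment and 0 were called by edgeR or DESeq2. Thy1 held 135 to 153 CPM in 6 PBS retinas and 125 to 156 CPM in 9 TNF retinas. For Thy1 on day 35 the interval of -0.12 to 0.05 excluded a fall of the size seen after IL1A+TNF on day 2.

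**Figure D4:**
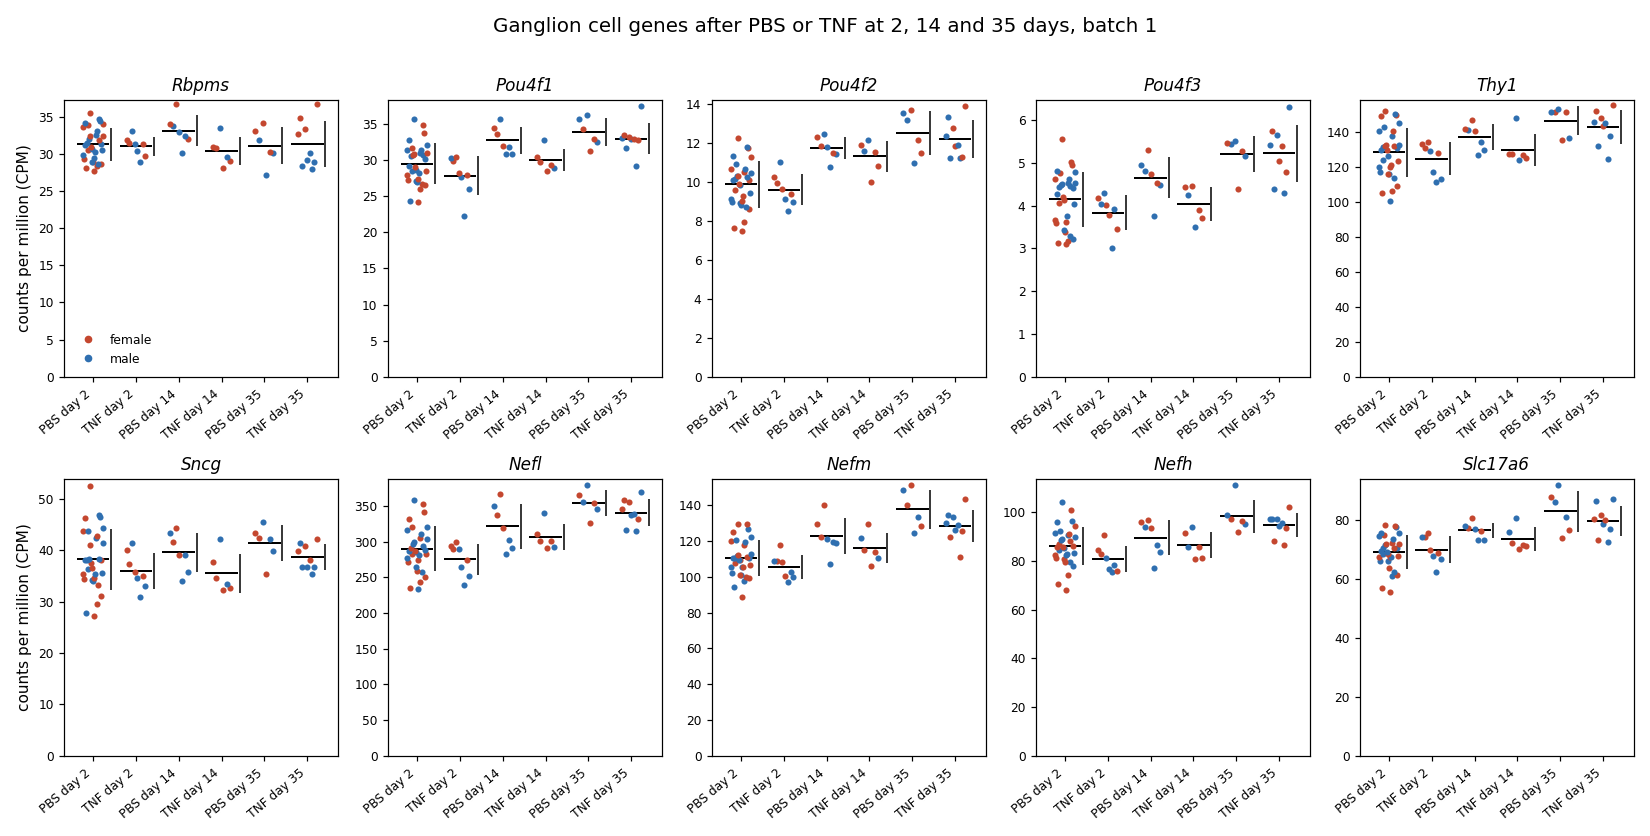
Level of each gene in WT retinas of batch 1 on days 2, 14 and 35 after PBS or TNF (x axis); the y axis is CPM from 0, each point is 1 retina coloured by sex, the horizontal line is the group mean and the vertical line 1 SD on either side. PBS and TNF retinas overlap on each day for every gene, and Nefm in PBS retinas moves from a median of 111 CPM on day 2 to 137 CPM on day 35.

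The PBS retinas themselves changed over time. From day 2 to day 35, 8 of the 10 genes rose, by 0.19 (Nefh, Thy1) to 0.34 (Pou4f2), while 15.9% of all 20056 genes were called higher. Nefm held 88.8 to 130 CPM on day 2 (median 111) and 124 to 152 CPM on day 35 (median 137), and its log2 fold change of 0.31 (SE 0.06, FDR 2.08e-05) had the smallest FDR. Pou4f2 went from a median of 10.1 to 12.6 CPM. For Rbpms the log2 fold change was -0.01 (95% interval -0.12 to 0.09), and Sncg had a log2 fold change of 0.12 (FDR 0.278). On day 14 only Pou4f2 was called higher than on day 2 by limma-voom (0.25, SE 0.07, FDR 0.00946), beside 8.1% of all genes. DESeq2 size factors and edgeR added Nefm, the DESeq2 test added Nefm and Pou4f1, and scaled by the other retinal neurons none was called on day 14. Rod genes rose by a median of 0.31 and microglial and myeloid genes fell by a median of 1.65 between days 2 and 35 of PBS retinas. Scaled by the other retinal neurons, only Pou4f2 was called higher (0.14) and Rbpms lower (-0.22) on day 35, the median of the 10 was 0.02, and Pou4f1, Thy1 and Nefh had slightly negative estimates. The shares of all genes called with these other tools and scalings are not given here, so these counts do not set the 10 genes apart. Day and age at dissection, and any run in which retinas of a day were processed together, cannot be told apart.

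Between retinas of the same group and sex, the 10 genes moved together. Over all retinas the Pearson r of residual log2 CPM between 2 genes had a median of 0.76 over the 45 pairs, from 0.14 (Pou4f1 with Nefh) to 0.95 (Thy1 with Nefl). The points share library, depth and scaling, and retinas of 1 mouse are not independent, so r is a description here. Thy1 followed the mean of the other 9 genes most closely (r = 0.96), then Nefl (0.95), and Nefh least (0.33). Without the 3 female Sarm1-/- IL1A+TNF retinas the median pair was 0.66, Thy1 was still closest to the others (0.94), Nefh rose to 0.68 and Rbpms was then lowest (0.52). Scaled by the other retinal neurons, the median pair was 0.37.

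**Figure D5:**
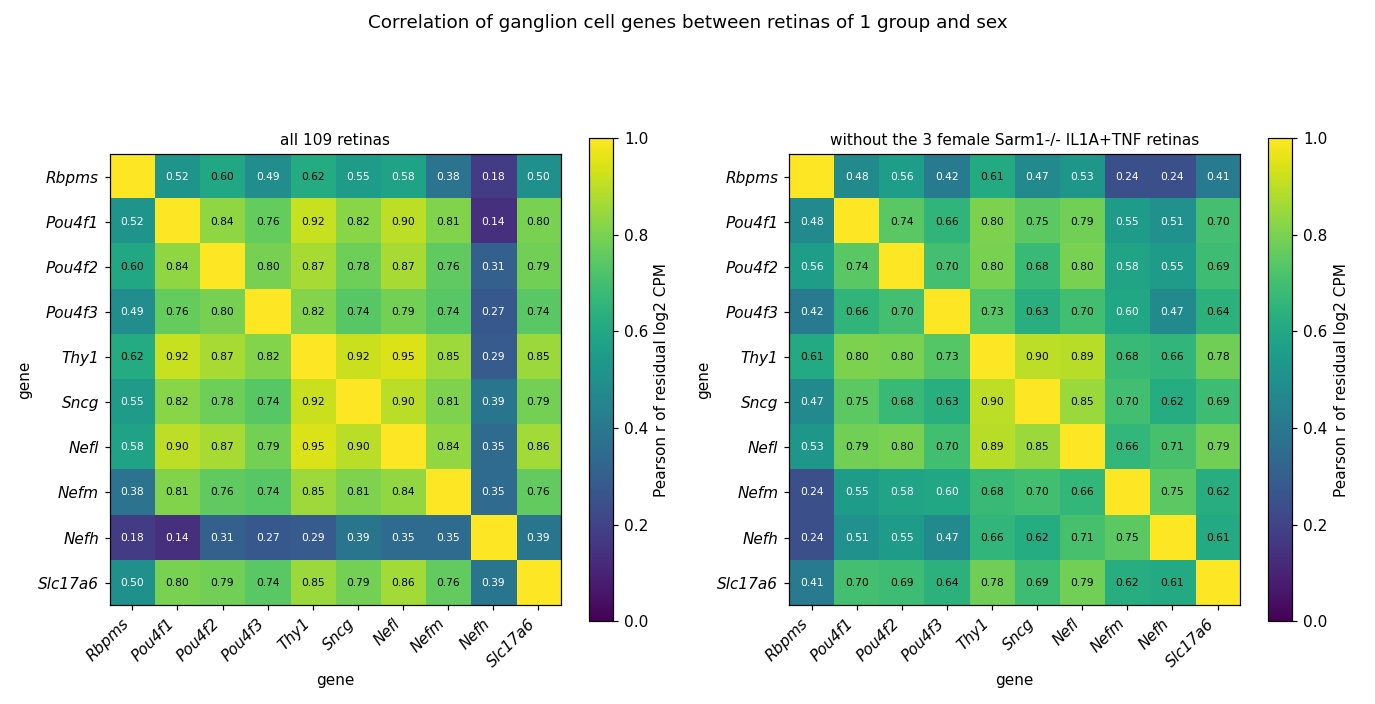
Pearson r of residual log2 CPM between each pair of the 10 genes (both axes are genes, colour is r from 0 to 1), over all retinas on the left and without the 3 female Sarm1-/- IL1A+TNF retinas on the right. Nefh has the lowest values on the left, and on the right Rbpms does.

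Among 15121 other genes with a mean of at least 1 CPM, those most like the mean of the 10 over all retinas were Cplx1 (r = 0.96), Calb2 (0.95), Nrsn1 (0.94), Bend6, Sult4a1 and Cplx2 (each 0.94 or 0.93), Nell2, Diras1, Gm38393 and Ina (0.93 each). Calb2 encodes calretinin, which ganglion and amacrine cells hold, Cplx1 and Cplx2 encode complexins of the synaptic release machinery, and Ina encodes the neuronal filament subunit alpha-internexin, the usual partner of Nefl, Nefm and Nefh. Without the 3 retinas, Calb2, Cplx1, Ina and Bend6 led the list, and scaled by the other retinal neurons Sult4a1 (0.78) and Stmn2 (0.76) were among the most similar.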

How the data were processed

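RNA of whole retinas was sequenced as polyA-selected, paired-end libraries. The authors aligned reads to mm10 with STAR 2.7.9a and deposited read pair counts per gene from featureCounts (Subread 2.0.1). The strand setting and the annotation release are not given in the sources used here. Groups came from the sample labels. The 10 genes and all gene lists were chosen with earlier results of these data known. Genes were filtered with filterByExpr (minimum count 10, minimum total 15) and scaled by TMM. The main test was limma-voom (limma 3.58.1, R 4.3.3) with sex as a covariate, batch where both were fitted, and mouse as a random block, with Benjamini-Hochberg adjustment over all genes tested. Alternatives were edgeR 4.0.16, DESeq2 1.42.0, other scalings, no filter, other blocks, and each mouse left out with the block correlation of the full fit. Of the comparisons, only IL1A+TNF against PBS on day 2, batch 1, was tested on simulated counts. Per-length levels used exon unions of GENCODE M21, which may not be the annotation used for counting. Of further ganglion cell genes, up to 6 called genes with the smallest FDR were named, and of similar genes the 10 with the largest r. Both eyes of a mouse come from the same animal, which is the source of the pairing, and their deviations from the group means correlated with a median r of 0.04 over 45 pairs (-0.26 to 0.36).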

Additional observations from a re-analysis of the deposited data

Results flagged for a closer look

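Of 110 gene and group pairs, 12 had a retina whose gap to its nearest neighbour, as a share of the group's range, passed Dixon's 95% limit, where chance gives about 1 in 20. The WT IL1A+TNF retina 61721L of batch 2 was lowest for Pou4f1 (share 0.748), Pou4f2 (0.643), Pou4f3 (0.707), Nefm (0.673) and Slc17a6 (0.785). The IL1A retina 60637L was lowest for Thy1 (0.515) and Sncg (0.607). The others were Nefh in IL1A+TNF retina 60214R of batch 1, the highest (0.47), Pou4f1 in WT PBS retina 61927L (0.712) and Pou4f3 in WT PBS retina 62224L (0.753), the lowest of batch 2, Pou4f3 in day 35 PBS retina 59896L, the lowest (0.706), and Thy1 in day 14 TNF retina 59709L, the highest (0.859).

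The effect of IL1A+TNF differed between genotypes for 9 genes, on the log2 scale by -0.55 for Rbpms, -1.06 for Pou4f1, -1.05 for Pou4f2, -1.05 for Pou4f3, -1.05 for Thy1, -1.01 for Sncg, -0.78 for Nefl, -1.02 for Nefm and -1.13 for Slc17a6 (Sarm1-/- less WT, limma-voom). In Sarm1-/- retinas it differed between females and males for all 10, by -1.36 for Rbpms, -2.49 for Pou4f1, -2.94 for Pou4f2, -3.03 for Pou4f3, -2.40 for Thy1, -2.74 for Sncg, -1.86 for Nefl, -2.62 for Nefm, -0.66 for Nefh and -2.50 for Slc17a6, with 3 mice of each sex. Beside them, 7.39% of all genes were called lower for the genotype difference and 17.7% for the difference between the sexes. The genotype difference was called for none of the 10 by edgeR or in batch 2 alone. Both sets of values rest on the same 3 female retinas.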

How the results depend on the processing

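The fits without the 3 female Sarm1-/- IL1A+TNF retinas, by sex and of the 11 WT retinas of batch 2 alone were chosen after seeing the data. Counts given here are of the 10 genes called. The shares of all genes called beside them are given above for some settings only. Scaled by other retinal neuron genes, 2 were called for IL1A, 4 for IL1A+TNF against IL1A, 4 for the IL1A by TNF interaction, 0 for PBS on day 14 and 2 for PBS on day 35, and the median correlation of gene pairs was 0.37. Changes of sign are listed only for genes called in the reported fit or in the other setting, so others may have changed sign too. Values that changed sign on that scale were, for IL1A+TNF on day 2, 0.078 (Rbpms), 0.13 (Pou4f1), 0.087 (Thy1), 0.10 (Sncg), 0.11 (Nefl), 0.16 (Nefm), 0.25 (Nefh) and 0.30 (Slc17a6). For IL1A they were 0.039 (Rbpms), 0.0036 (Pou4f1) and 0.021 (Nefh), for IL1A+TNF against IL1A 0.039 (Rbpms) and 0.14 (Nefl), and for PBS on day 35 -0.0058 (Pou4f1), -0.012 (Thy1) and -0.014 (Nefh). In Sarm1-/- retinas Nefh became 0.49, against WT IL1A+TNF retinas 0.19, in females 0.96 (Rbpms 0.10), and in the sex by treatment interaction 0.93 (Rbpms 0.21). Without the 3 female retinas, 0 were called in Sarm1-/- retinas, 0 against WT IL1A+TNF retinas and 0 for the genotype interaction, and 9 in WT retinas of batch 2. Against WT IL1A+TNF retinas the signs then changed to 0.046 (Rbpms), 0.20 (Pou4f1), 0.38 (Pou4f2), 0.36 (Pou4f3), 0.25 (Thy1), 0.31 (Sncg), 0.23 (Nefl), 0.25 (Nefm), 0.077 (Nefh) and 0.24 (Slc17a6), and in the interaction to 0.016 (Rbpms), 0.087 (Pou4f1), 0.21 (Pou4f2), 0.26 (Pou4f3), 0.15 (Thy1), 0.28 (Sncg), 0.16 (Nefl), 0.26 (Nefm) and 0.088 (Slc17a6). Nefh was called in neither fit of the interaction and is therefore not listed there, although its estimate also turned positive. Against WT IL1A+TNF retinas, edgeR called 1, DESeq2 4 and batch 2 alone 0, and for the genotype interaction 0, 1 and 0. The Rbpms call between IL1A+TNF and IL1A was lost (0) with total counts and with no filter. For PBS on day 14, DESeq2 size factors and edgeR called 2 and DESeq2 3. With mouse as a fixed replicate block, IL1A gave 0, WT retinas of batch 2 gave 6 and Sarm1-/- retinas 0, and it changed no other count by over 1.5 times. The 11 WT retinas of batch 2 alone gave 6. The cause of these changes was not tested beyond what each setting removes. With each mouse left out, the count was 5 (without 60637) to 10 for IL1A, 0 to 1 for IL1A+TNF against IL1A, 1 to 2 for PBS on day 14, 2 (without 61924) to 10 for Sarm1-/- against WT after IL1A+TNF and 0 (without 61924 or 61926) to 10 for the genotype interaction, and the same as reported for the other comparisons.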
